A study of Mus musculus with 14 samples.

Results

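A list of 8 genes known from fetal-like and regenerating intestinal epithelium was followed in mouse intestinal organoids, namely Clu, Ly6a, Ly6d, Plaur, Anxa1, Anxa3, Gja1 and Sprr1a. They were taken as a list by gene symbol, and they are 8 of the 20707 genes of the single-cell matrices and 8 of the 27399 genes of the bulk table. All organoids were grown in medium with EGF, Noggin and R-spondin1. Droplet-based sequencing of single cells covered 4 groups with 1 library each (10x Genomics). In 3 of them the organoids carried the Chgb-mCherry knock-in, in which the locus of chromogranin B, a granule protein of hormone-producing enteroendocrine cells, drives a red fluorescent protein. These knock-in organoids received 25 µM Isx-9, a small molecule studied as an inducer of neuronal differentiation, for 6 days, or its solvent DMSO at 0.05% for 6 days, or were left untreated (called the untreated reporter here). The fourth library came from untreated wild-type organoids. Bulk RNA-seq covered sorted intestinal stem cells of organoids with an Lgr5-EGFP knock-in, in which the locus of the stem cell receptor Lgr5 drives a green fluorescent protein, after 6 hours with 25 µM Isx-9 (2 libraries) or with 0.05% DMSO (2 libraries), with treatment begun 2 days after passaging.

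As background, adult intestinal epithelium that loses its stem cells to injury, infection or irradiation passes through a state in which genes of the fetal gut are switched on again. In mice this state has been tied to the co-activator YAP, which binds DNA through TEAD factors, and to interferon and prostaglandin signals from the tissue around the crypt. The genes of the list play different roles within it. Clu encodes clusterin, a secreted chaperone that marks rare cells arising after damage to the mouse crypt. Ly6a (Sca-1), Ly6d and Plaur encode surface proteins of the Ly6/uPAR family, and Plaur is the receptor of the protease urokinase. Anxa1 and Anxa3 encode annexins, which bind membranes in the presence of calcium, and annexin A1 is also a ligand of formyl peptide receptors. Gja1 encodes connexin 43, a gap junction channel, and Sprr1a encodes a small proline-rich protein known from the cornified envelope of skin.

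In the GRCm38.p6 annotation of RefSeq the genes lie apart from one another except Ly6a and Ly6d. Clu (ENSMUSG00000022037) spans chr14:65968483-65981548, Ly6a (ENSMUSG00000075602) chr15:74994877-74998031, Ly6d (ENSMUSG00000034634) chr15:74762056-74763567 and Plaur (ENSMUSG00000046223) chr7:24460937-24475970. Anxa1 (ENSMUSG00000024659) spans chr19:20373434-20390671, Anxa3 (ENSMUSG00000029484) chr5:96793385-96845968, Gja1 (ENSMUSG00000050953) chr10:56377300-56390419 and Sprr1a (ENSMUSG00000050359) chr3:92483954-92485881. Promoter sequence was matched by symbol for 4 of the 8 genes, Anxa1, Gja1, Plaur and Sprr1a. Clu, Ly6a, Anxa3 and Ly6d had no entry.

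The 250 bases before the start of these 4 genes are shown because 3 of them, Plaur, Gja1 and Sprr1a, hold the same short motif. The sequences are from RefSeq, build GRCm38.p6, written 5′ to 3′ on the strand of the gene. Capitals mark TGANTCA, the core bound by AP-1 factors, or CATTCC, the reverse complement of the TEAD core GGAATG. The window of Plaur (plus strand, chr7:24462233-24462482) lies inside the annotated span of the gene, that of Gja1 (plus strand) is chr10:56377050-56377299, that of Sprr1a (minus strand) is chr3:92485882-92486131, and that of Anxa1 (minus strand) is chr19:20390672-20390921.
Plaur: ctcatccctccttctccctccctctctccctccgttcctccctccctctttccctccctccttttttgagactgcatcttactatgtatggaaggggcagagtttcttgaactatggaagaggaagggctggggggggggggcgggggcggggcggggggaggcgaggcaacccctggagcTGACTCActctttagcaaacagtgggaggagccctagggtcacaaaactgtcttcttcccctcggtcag
Gja1: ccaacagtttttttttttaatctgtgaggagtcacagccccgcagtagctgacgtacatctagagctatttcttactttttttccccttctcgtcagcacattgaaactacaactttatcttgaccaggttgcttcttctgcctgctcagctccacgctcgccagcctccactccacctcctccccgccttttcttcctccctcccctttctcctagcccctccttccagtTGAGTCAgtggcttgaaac
Sprr1a: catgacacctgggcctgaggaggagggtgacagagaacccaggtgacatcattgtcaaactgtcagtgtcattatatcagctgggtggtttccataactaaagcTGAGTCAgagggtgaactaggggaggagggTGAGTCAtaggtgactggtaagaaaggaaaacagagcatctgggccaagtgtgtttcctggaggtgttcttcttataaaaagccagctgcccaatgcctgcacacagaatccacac
Anxa1: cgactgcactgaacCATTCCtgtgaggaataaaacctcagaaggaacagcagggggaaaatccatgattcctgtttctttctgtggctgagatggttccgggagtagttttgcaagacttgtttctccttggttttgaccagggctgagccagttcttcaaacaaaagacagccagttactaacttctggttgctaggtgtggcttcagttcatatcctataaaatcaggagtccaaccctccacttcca
The AP-1 core begins 69 bases before the start in Plaur, 19 in Gja1, and 146 and 116 in Sprr1a, and the TEAD core of Anxa1 begins 236 bases before the start. TGANTCA reads the same on both strands and was found in 2217 of 32851 such windows (6.75%). GGAATG, searched on both strands, was found in 4153 (12.6%). The 2 motifs do not overlap in these windows. A match of letters is a description of the sequence and was not tied to binding.

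The libraries differed in ways that touch the results. After removal of barcodes under 500 genes, under 1000 unique molecular identifiers (UMIs, which count captured RNA molecules) or over 20% mitochondrial UMIs, and of called doublets, 9185 of 12201 deposited barcodes were kept for Isx-9, 8969 of 11632 for DMSO, 9610 of 11885 for the untreated reporter and 8744 of 10830 for wild type. The median UMIs per kept cell were 8888 for Isx-9 and between 12633 and 15007 in the other 3 libraries. The doublet caller marked 831 barcodes in the Isx-9 library, 0 in DMSO, 0 in the untreated reporter and 1 in wild type. So few calls in the last 3 libraries are taken as a failure of the caller, and doublets were thus removed from the Isx-9 library almost alone. With the 831 barcodes kept, the counts of the 8 genes past a fold of 2 were the same. Pairs of libraries shared 32 to 52 barcodes, at most 0.438% of a library. The wild-type library stood apart in Xist (0.24 CPM, the gene's UMIs scaled to the total UMIs of the library, in the untreated reporter, against 427 CPM in wild type) and Hoxb9 (2.56 CPM in the untreated reporter, against 47.8 CPM in wild type), so the 2 libraries differ in more than the knock-in. Bulk libraries held 18909542 to 19487264 counts. The labels do not say whether replicates came from separate cultures, so a bulk p-value reflects the spread among 4 libraries, which may be technical. The sorted cells expressed Lgr5, with 6266 and 6424 counts in Isx-9 libraries and 7017 and 6182 in DMSO libraries.

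At 6 hours in sorted stem cells, 6 of the 8 genes were higher with Isx-9, 1 was tested without passing and 1 was too low to test. Gja1, Anxa1, Anxa3 and Plaur rose in every alternative fit, whereas the calls of Clu and Sprr1a rested on single libraries. In the test used throughout for bulk counts (edgeR's quasi-likelihood test with Benjamini-Hochberg adjustment over 17418 genes, threshold 0.05), 27.3% of all genes were higher and 20% lower, so many genes moved at this time. The median log2 fold change of the 7 tested genes was 1.243, beside 0.02 over all tested genes. Both Isx-9 libraries stood above both DMSO libraries for 6 of the 7, beside 38.9% of all tested genes. DESeq2 called 4 of the 7 higher, beside 21.8% of 19962 genes, and 0 lower, beside 13.9%. The count of 6 includes Gja1, which passed the filter on low counts only through the Isx-9 libraries. In bulk RNA, fewer cells of a type and less RNA per cell cannot be told apart.

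Of the secreted and surface proteins, Clu had 663 and 359 counts with Isx-9 and 317 and 80 with DMSO. Both Isx-9 libraries were above both DMSO libraries, but Isx-9 replicate 2 and DMSO replicate 1 nearly met, at 17.9 and 17.1 CPM (counts scaled to TMM library sizes). Its mean was 25.5 ± 10.7 CPM with Isx-9 and 10.7 ± 8.95 CPM with DMSO (SD, n = 2 each), which is 1.243 on the log2 scale (SE 0.45, adjusted p = 0.0404 in edgeR). The call was lost without DMSO replicate 2 (log2 0.57, edgeR adjusted p = 0.132) and without Isx-9 replicate 1 (0.75, 0.289), and without DMSO replicate 1 the value was 2.52 on the log2 scale. In DESeq2 the adjusted p was 0.345, and in the authors' deposited table it was 0.355.

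Ly6a had 57 and 47 counts with Isx-9 and 50 and 7 with DMSO, so the groups overlapped. Its log2 fold change of 0.75 (SE 0.66) did not pass the edgeR test (adjusted p = 0.383). The value turned on DMSO replicate 2. Without that library it was -0.063, and without DMSO replicate 1 it was 2.72 with an edgeR adjusted p of 0.0065. Ly6a sits among closely related Ly6 genes, so the split of reads between it and near copies is uncertain. Ly6d had 6 and 5 counts with Isx-9 and 2 and 0 with DMSO, too few to test.

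Plaur, the urokinase receptor, had 725 and 840 counts with Isx-9 and 456 and 365 with DMSO. The groups did not overlap, and the means were 39.01 ± 4.09 CPM with Isx-9 and 22.3 ± 3.14 CPM with DMSO (SD, n = 2 each). Its log2 fold change of 0.80 (SE 0.14) was the smallest among the genes that passed (edgeR adjusted p = 0.000766). The genes around it in plasminogen activation rose as well: all 6 tested members of a list of 10 were higher and 0 were lower, with a median log2 fold change of 2.65. Plau, which encodes urokinase itself, had 102 and 127 counts with Isx-9 and 9 and 9 with DMSO (log2 3.52, SE 0.43). Plat, which encodes the tissue activator, was higher by 1.78 on the log2 scale (SE 0.21). The inhibitor gene Serpine2 rose by 3.98 (SE 0.45).

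The annexin genes Anxa1 and Anxa3 both rose. Anxa1 had 378 and 270 counts with Isx-9 and 39 and 34 with DMSO. The groups stood far apart, with 16.2 ± 3.79 CPM with Isx-9 and 1.99 ± 0.16 CPM with DMSO (SD, n = 2 each), and Anxa1 rose by 3.02 on the log2 scale (SE 0.27, edgeR adjusted p = 7.3e-06). Anxa3 had 597 and 576 counts with Isx-9 and 305 and 171 with DMSO, or 29.2 ± 0.713 CPM with Isx-9 and 12.9 ± 4.95 CPM with DMSO (SD, n = 2 each), and rose by 1.18 on the log2 scale (SE 0.22, edgeR adjusted p = 0.00105). Of 11 tested annexin genes, these 2 included, 5 were higher and 2 lower (median 0.24). Anxa6 was higher by 3.63 (SE 0.20), Anxa9 by 2.16 (SE 0.37) and Anxa5 by 1.45 (SE 0.16), and Anxa11 was lower (-0.29, SE 0.09). S100a11, a calcium-binding partner of annexin A1, rose by 0.46 (SE 0.16).

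Gja1 had the largest fold change of the 7 tested genes. It had 227 and 180 counts with Isx-9 and 0 and 4 with DMSO, that is 10.1 ± 1.65 CPM with Isx-9 and 0.110 ± 0.156 CPM with DMSO (SD, n = 2 each). Its value of 6.46 on the log2 scale (SE 0.59, edgeR adjusted p = 8.1e-06) depends on so few DMSO counts that the value was 10.63 without DMSO replicate 2 and 5.48 without DMSO replicate 1. In the DMSO range from 0.1 to 1 CPM, where Gja1 lies, 49.7% of all tested genes were higher, and under 0.1 CPM 901 of 901 were, since such genes passed the filter only through the Isx-9 libraries. Of 9 tested connexin genes, Gja1 included, 5 were higher and 1 lower (median 0.99). Gjc1 had 114 and 81 counts with Isx-9, Gja3 102 and 72, and Gja4 25 and 45, and all 3 had 0 in both DMSO libraries, so that their calls, 3 of the 5, were fixed by the filter and add nothing to the count.

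Sprr1a had 42 and 77 counts with Isx-9 and 27 and 15 with DMSO, or 2.97 ± 1.237 CPM with Isx-9 and 1.14 ± 0.443 CPM with DMSO (SD, n = 2 each). The groups did not overlap, and the log2 fold change of 1.37 (SE 0.50) passed narrowly (edgeR adjusted p = 0.0418). The call was lost without DMSO replicate 2 (1.02, edgeR adjusted p = 0.151) and without Isx-9 replicate 2 (0.90, 0.375), in DESeq2 (adjusted p = 0.0935) and in the authors' deposited table (0.0985). Of 8 tested cornified envelope genes, Sprr1a included, 4 were higher and 0 lower (median 0.65), among them Ppl (0.72, SE 0.11) and Evpl (0.57, SE 0.15), which encode periplakin and envoplakin. Sprr2a2 was also called (0.72, SE 0.25), though reads of the near-identical Sprr2a copies cannot be assigned with certainty.

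**Figure D1:**
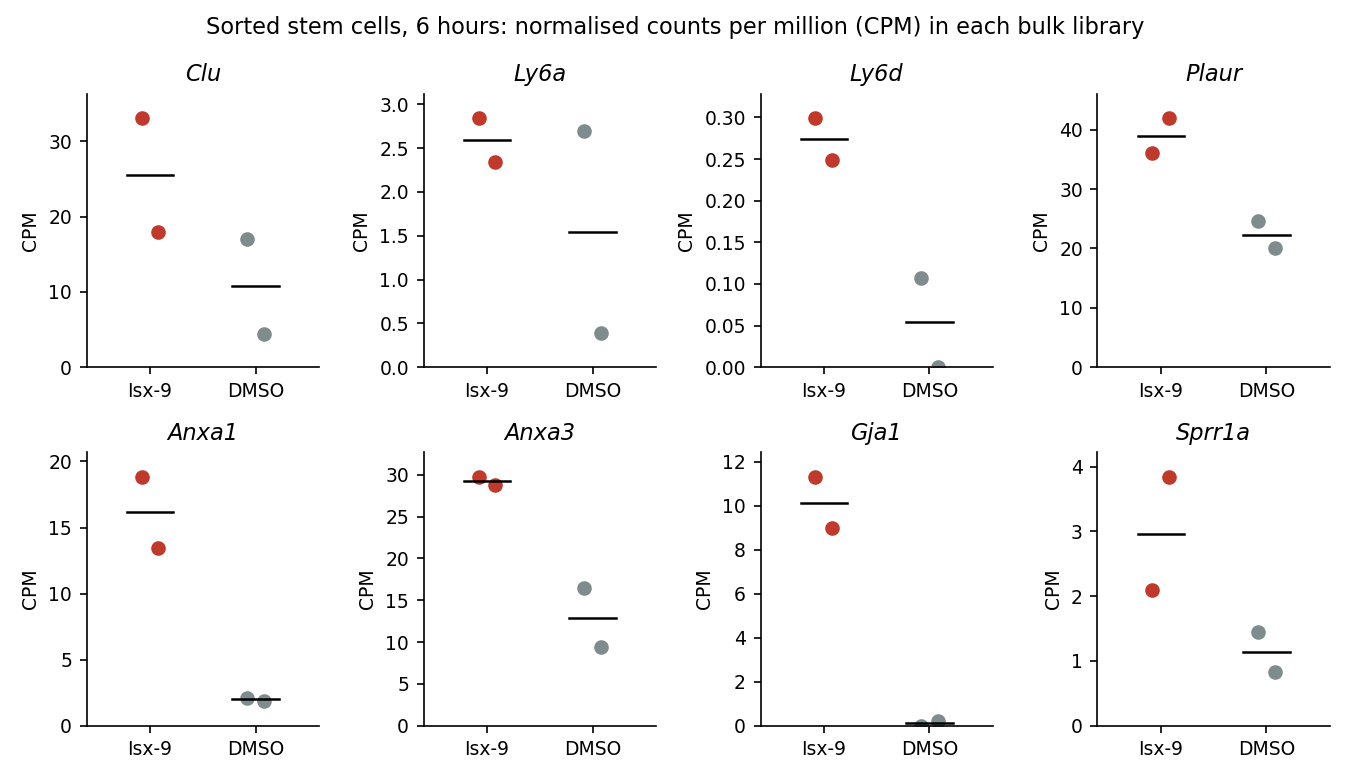
Each panel plots 1 gene in sorted stem cells at 6 hours, in CPM on a linear axis from 0, with a point per library (Isx-9 left, DMSO right) and a bar at the mean of 2 libraries. The Isx-9 points lie above the DMSO points for every gene except Ly6a, where 1 DMSO library (2.69) falls between the Isx-9 libraries (2.84 and 2.35).

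Other genes of the fetal-like state moved in the same direction where they passed. Of 19 tested genes of that kind outside the 8, 12 were higher and 0 lower (median log2 0.55). Tubb6, a tubulin, had 1378 and 1174 counts with Isx-9 and 75 and 50 with DMSO (log2 4.22, SE 0.18). Ptgs2, the prostaglandin synthase, had 60 and 11 counts with Isx-9 and 0 and 4 with DMSO (3.94, SE 1.09). The alarmin gene Il33 had 24 and 25 with Isx-9 and 6 and 2 with DMSO (2.46, SE 0.71). The interleukin antagonist gene Il1rn was higher by 2.11 (SE 0.62). These genes lay between 0.1 and 1 CPM in DMSO, where 49.7% of all tested genes were higher. Ptgs2 and Il33 passed the filter on low counts only through the Isx-9 libraries. In the authors' deposited table the adjusted p of Il33 was 0.0725. Of 15 components of the YAP pathway 4 were higher (26.7%) and 3 lower (20%), the same as the shares over all genes (27.3% and 20%), with a median of -0.07. The YAP paralog Wwtr1 was higher by 2.07 (SE 0.13), its DNA-binding partners Tead4 by 2.04 (SE 0.32) and Tead2 by 1.76 (SE 0.13), and the kinase Stk3 by 0.33 (SE 0.12). The 3 lower genes, named after their values were seen, were Vgll4 (-0.30, SE 0.08), Yap1 itself (-0.29, SE 0.08) and the kinase activator gene Mob1a (-0.24, SE 0.07). Of 11 tested YAP target genes 6 were higher and 1 lower (median 0.35). The largest changes were in the receptor kinase gene Axl (234 and 118 counts with Isx-9, 0 and 3 with DMSO) and Dlc1 (3.46, SE 0.36). Ptpn14 (1.94, SE 0.24) and Arhgef17 (1.87, SE 0.11) followed. Axl passed the filter on low counts only through the Isx-9 libraries.

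Of 15 tested Ly6/uPAR family genes, Ly6a and Plaur included, 9 were higher and 1 lower (median 0.90). Ly6h had 40 and 14 counts with Isx-9 and Lypd6b 25 and 25, both with 0 in the DMSO libraries and hence called through the filter. Cd59a (4.74, SE 0.96) had 21 and 44 counts with Isx-9 and 2 and 0 with DMSO. Lypd3 (4.19, SE 0.79) had 69 and 55 with Isx-9 and 0 and 6 with DMSO. Cd59a and Lypd3 thus also passed the filter only through the Isx-9 libraries. Of 7 tested interferon response genes 3 were higher and 0 lower (median 0.45), namely Oasl2 (2.09, SE 0.57), Bst2 (0.90, SE 0.26) and Stat2 (0.45, SE 0.13). Of 6 tested binding partners of the listed proteins 2 were higher and 1 lower (median 0.15). Lrp2, which encodes the clusterin receptor megalin, had 821 and 461 counts with Isx-9 and 0 in both DMSO libraries, where the same limit holds, and the phospholipase gene Pla2g4a, whose product annexin A1 binds, was lower (-0.68, SE 0.10).

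Markers of several other cell types moved beside these genes, whereas 0 of 7 goblet and 0 of 7 Paneth markers were called. Summed counts of 5 squamous markers, all too low to test, were 31 and 17 with Isx-9 and 2 and 1 with DMSO. Of 7 stem cell markers 5 were lower with Isx-9 (Ascl2, Olfm4, Smoc2, Axin2 and Slc12a2), and their summed counts were 147648 and 122362 with Isx-9 and 175859 and 170369 with DMSO. Summed counts of 7 mesenchymal markers were 458 and 266 with Isx-9 and 33 and 25 with DMSO. Col1a1, Pdgfra and Thy1 were higher, whereas Col3a1 and Dcn had at most 6 counts in any library. Summed counts of endothelial markers were 86 and 90 with Isx-9 and 8 and 23 with DMSO, and those of immune markers were 454 and 566 with Isx-9 and 693 and 572 with DMSO. Tuft cell markers summed to 813 and 706 counts with Isx-9 and 267 and 291 with DMSO, and 3 of the 5 tested were higher (Pou2f3, Alox5ap and Avil). Glial and muscle markers summed to 225 and 181 with Isx-9 and 42 and 43 with DMSO (S100b, Des and Myh11 higher). Gastric markers summed to 531 and 366 with Isx-9 and 162 and 133 with DMSO (Atp4a higher, with Muc5ac, Tff1, Tff2 and Gkn2 under 10 counts in every library). Of 8 proliferation markers 5 were lower, and of 15 enteroendocrine markers 3 were higher (Neurog3, Cpe and Pcsk1) and 1 lower (Chga). Over all tested genes the calls varied with the level in DMSO. Of genes over 100 CPM 58.4% were lower, and of those from 10 to 100 CPM 25.9%. Of genes from 1 to 10 CPM 29.2% were higher, and of those from 0.1 to 1 CPM 49.7%. The counts of markers called were not set against genes of the same level. The part of these markers in the results was not tested.

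After 6 days in whole organoids the list split. Clu, Ly6a, Anxa1 and Anxa3 were higher with Isx-9 than with DMSO, Gja1 was seen almost only with Isx-9, Ly6d was close to level, and Plaur and Sprr1a were lower. With 1 library per group there is no replicate and no test, and the intervals given are exact 95% Poisson or binomial intervals that cover counting error only. Past a fold of 2, 5 of the 8 genes were higher, beside 34.5% of 16639 genes with at least 30 UMIs, and 2 were lower, beside 4.83%. The 5 include Gja1, which was not listed with DMSO and reached 30 UMIs only through the Isx-9 library. For such genes, here and in the lists below, the call as higher was fixed by that rule. The 34.5% includes such genes too. The median ratio over all genes was 1.37, so ratios are also given over that median.

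Clu had 418 CPM of UMIs in the Isx-9 library, 8.19 with DMSO, 6.27 in the untreated reporter and 10.4 in wild type. The ratio of Isx-9 to DMSO was 51.0 (48.0 to 54.3), or 37.3 over the median of all genes. Ly6a had 118 CPM with Isx-9, 14.7 with DMSO, 14.05 in the untreated reporter and 56.7 in wild type, with a ratio of Isx-9 to DMSO of 8.03 (7.65 to 8.44) and of 5.88 over the median. Wild type thus lay between the Isx-9 library and the other 2 for Ly6a, and the DMSO and untreated reporter libraries could not be separated within counting error (ratio 1.05, 0.984 to 1.12). Ly6d had 5.91 CPM with Isx-9, 5.18 with DMSO, 5.89 in the untreated reporter and 29.6 in wild type. Its ratio of Isx-9 to DMSO was 1.14 (1.02 to 1.28) and 0.835 over the median, so its side of 1 depends on that scaling.

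Plaur had 4.73 CPM with Isx-9, 11.96 with DMSO, 8.82 in the untreated reporter and 16.8 in wild type, a ratio of Isx-9 to DMSO of 0.396 (0.356 to 0.440). Anxa1 had 57.5 CPM with Isx-9, 9.41 with DMSO, 7.29 in the untreated reporter and 30.1 in wild type (ratio of Isx-9 to DMSO 6.11, 5.74 to 6.51). Anxa3 had 72.2 CPM with Isx-9, 26.6 with DMSO, 25.1 in the untreated reporter and 48.6 in wild type, with a ratio of 2.71 (2.60 to 2.82) or 1.98 over the median. Both annexin genes thus kept the order Isx-9, wild type, DMSO, untreated reporter.

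Gja1 had 447 UMIs in the Isx-9 library (4.65 CPM), 4 in the untreated reporter and 3 in wild type. It was not listed in the DMSO matrix, and since each matrix lists only genes found in at least 3 barcodes, no ratio is given. Sprr1a had 2.66 CPM with Isx-9, 26.4 with DMSO, 22.9 in the untreated reporter and 56.1 in wild type. Its ratio of Isx-9 to DMSO was 0.101 (0.089 to 0.115), or 0.0738 over the median. Sprr1a and Plaur were the 2 genes of the list that the Isx-9 library held at the lowest level of the 4 libraries.

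**Figure D2:**
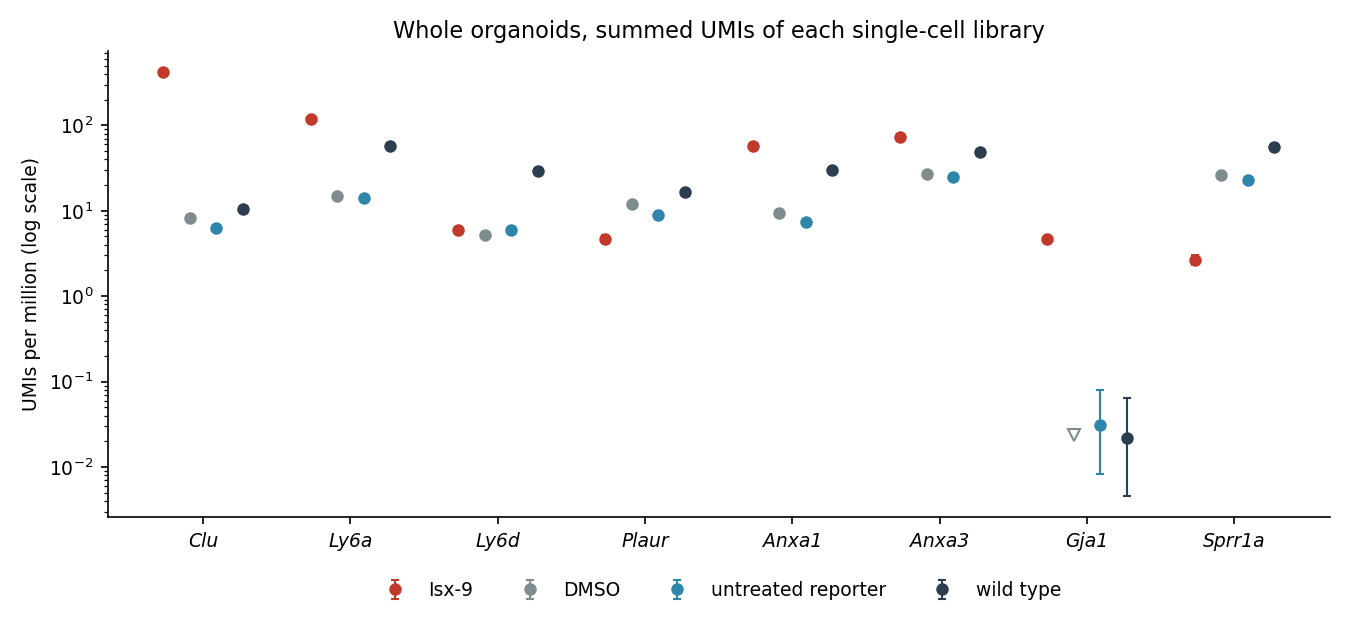
CPM of UMIs of each gene in the summed kept cells of each single-cell library, on a log axis, with exact 95% Poisson intervals that mostly lie within the points. The open triangle marks Gja1 in the DMSO library, where it was not listed, drawn at the level of 3 UMIs. Isx-9 is the top point for Clu, Ly6a, Anxa1, Anxa3 and Gja1 and the lowest for Plaur and Sprr1a.

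The share of cells in which a gene was seen followed the same split. Each cell was thinned to 4000 UMIs to remove the depth gap, which left out 720 shallower cells for Isx-9, 843 for DMSO, 901 for the untreated reporter and 935 for wild type. Clu then had a UMI in 42.2% of Isx-9 cells, 2.46% of DMSO cells, 2.04% of untreated reporter cells and 2.77% of wild-type cells (without thinning 58.0% with Isx-9, 5.63% with DMSO, 5.07% in the untreated reporter and 7.97% in wild type). Ly6a was seen in 17.2% of Isx-9 cells, 1.76% of DMSO cells, 2.04% of untreated reporter cells and 6.98% of wild-type cells. Anxa1 was seen in 12.4% of Isx-9 cells, 1.26% of DMSO cells, 1.01% of untreated reporter cells and 4.42% of wild-type cells. Anxa3 was seen in 14.99% of Isx-9 cells, 5.37% of DMSO cells, 5.19% of untreated reporter cells and 10.5% of wild-type cells. Clu, Ly6a, Anxa1 and Anxa3 were thus widespread with Isx-9 and less so without it, with wild type in between for all but Clu, whose share there (2.77%) was near that of DMSO.

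The other 4 genes were seen in at most 4.43% of the cells of a library. Sprr1a was seen in 0.35% of Isx-9 cells, 2.10% of DMSO cells, 1.73% of untreated reporter cells and 4.43% of wild-type cells. Plaur was seen in 1.56% of Isx-9 cells, 2.67% of DMSO cells, 2.03% of untreated reporter cells and 4.10% of wild-type cells, and Ly6d in 1.02% of Isx-9 cells, 0.53% of DMSO cells, 0.44% of untreated reporter cells and 2.16% of wild-type cells. Gja1 was seen in 1.23% of Isx-9 cells and in 0 thinned cells elsewhere. In Paneth-like cells, taken as the class that should lack these genes, the 8 genes were seen in 0% to 1.55% of DMSO cells, 0% to 2.26% of untreated reporter cells and 0% to 3.25% of wild-type cells at the same 4000 UMIs. For Clu the Paneth-like shares were 0.52% in DMSO, 1.13% in the untreated reporter and 1.95% in wild type, with exact binomial intervals of 0.0130% to 2.84%, 0.137% to 4.02% and 0.404% to 5.59%. Its thinned shares over all cells of those libraries lay within these intervals, so that at this number of Paneth-like cells they could not be told from that background. Without thinning the wild-type share of 7.97% lay above the Paneth-like interval of 1.04% to 7.23%. In cluster 9, described below, Clu was seen in 13.1% of thinned DMSO cells, 16.3% of untreated reporter cells and 8.93% of wild-type cells. The Isx-9 library held 10 Paneth-like cells, too few for this background, and without thinning 70% of them had a UMI of Clu.

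The genes were concentrated in few groups of cells, and different groups held them with and without Isx-9. Cells of all 4 libraries were clustered on 2000 variable genes that left out the 8, which gave 22 clusters. In the Isx-9 library cluster 17, led by Reg3b, Cym, Ly6c1, Reg3g and Wnt6 and made up of 638 Isx-9 cells (6.95% of that library), held the highest level of each of the 8 among clusters with at least 50 cells there. The 12 Isx-9 cells of cluster 9 had more Sprr1a (266 CPM) and Plaur (136 CPM). In the other 3 libraries cluster 9, led by Fabp6, Lgals3, Areg, F3 and Clec2h, was highest for Clu, Ly6a, Anxa1, Anxa3 and Ly6d. Sprr1a was higher in cluster 14 than in cluster 9 in the untreated reporter and wild type, as was Plaur in wild type. Neither cluster met the marker rule for a name, so both go by number. Cluster 9 held 12 Isx-9 cells, 374 DMSO cells (4.17%), 329 untreated reporter cells (3.42%) and 1034 wild-type cells (11.8%). A cluster that comes from 1 library may reflect that library rather than a cell type.

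In cluster 17 Clu reached 2167 CPM, Ly6a 768, Anxa3 399 and Anxa1 288, and after thinning 97.9% of its cells had a UMI of Clu, 65.3% of Ly6a, 66.9% of Anxa3 and 56.5% of Anxa1. It held 50.5% of the Clu UMIs of the Isx-9 library, 63.2% of those of Ly6a, 48.8% of those of Anxa1 and 53.8% of those of Anxa3. Of the genes that were low in this library, Ly6d (74.8% of its UMIs, at 45.4 CPM) and Sprr1a (69.5%, at 19.01 CPM) lay mostly in cluster 17. Plaur (32.5%, at 15.8 CPM) and Gja1 (22.1%, at 10.6 CPM) lay mostly outside it. Of the stem cell markers, Lgr5 had 209.5 CPM in cluster 17, near its 207 to 228 CPM in cluster 3 of the other libraries. Lgr5 stood higher in clusters 4 (330.5 CPM) and 19 (247 CPM) of the Isx-9 library. Olfm4 had 22.5 CPM in cluster 17, against 4711 to 4875 CPM in cluster 3, and Ascl2 had 12.7 CPM, against 50.8 to 54.5 CPM. The 7 mesenchymal markers summed to 39.4 CPM in cluster 17, against 20.9 over the Isx-9 library with none of the 7 at 0, and to between 0.02 and 0.15 in the other libraries, where 4 to 6 of the 7 were at 0. The part of these markers was not tested.

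Clu was also spread more widely than the rest of the list. In cluster 4, led by Cym and Ifitm1 and holding 3001 Isx-9 cells (32.7%), Clu stood at 310 CPM, Anxa3 at 49.7, Anxa1 at 46.9 and Ly6a at 27.9, and 52.1% of the Gja1 UMIs lay there. Cluster 19, led by Hist1h2ap, Cym and Tubb6, had Clu at 447 and Gja1 at 6.7. The enteroendocrine-like cells of the Isx-9 library also carried Clu and Ly6a. They made up 53.4% of its cells, and in the largest of their clusters, cluster 2, Clu stood at 78.8 and Ly6a at 73.2 CPM. Cluster 16, led by Kirrel2 and the endocrine progenitor gene Neurog3, had Clu at 93.4 but Ly6a at 6.5. Clu was not particular to these cells. It stood at 82.3 CPM over the enteroendocrine-like cells of the Isx-9 library, and at 65.5 in its 33 tuft-like cells. In its 20 enterocyte-like cells Clu stood at 107 and in its 10 Paneth-like cells at 301. Ly6a had 0 UMIs in the tuft-like and enterocyte-like cells and 25 in the Paneth-like cells. Whether background RNA shared between cells plays a part was not tested. Ly6a UMIs per Clu UMI were 0.355 in cluster 17, 0.197 in cluster 19, 0.0901 in cluster 4, 0.930 in cluster 2 and 0.0695 in cluster 16, so the 2 genes were not carried in 1 fixed ratio.

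In cluster 9 Clu was modest, and Sprr1a, Anxa3, Ly6a and Anxa1 stood above Clu in DMSO, untreated reporter and wild-type cells. Sprr1a stood at 437 CPM in its DMSO cells, 384 in its untreated reporter cells and 355 in its wild-type cells. Anxa3 stood at 412 CPM in DMSO cells, 418 in untreated reporter cells and 287 in wild-type cells. Ly6a stood at 292 CPM in DMSO cells, 284 in untreated reporter cells and 365 in wild-type cells, and Anxa1 at 202 in DMSO cells, 174 in untreated reporter cells and 217 in wild-type cells. These 4 genes thus stayed within a fold of 2 between the libraries inside the cluster. Ly6d stood at 122 in DMSO cells, 146 in untreated reporter cells and 251 in wild-type cells. Plaur stood at 177 in DMSO cells, 132 in untreated reporter cells and 94.6 in wild-type cells, and Clu at 74.3 in DMSO cells, 55.7 in untreated reporter cells and 36.6 in wild-type cells. Gja1 had 0 UMIs in cluster 9. Within cluster 9 wild-type cells were thus highest for Ly6a, Ly6d and Anxa1 and lowest for Clu, Plaur, Anxa3 and Sprr1a, while Ly6a UMIs per Clu UMI were 3.93 in DMSO cells, 5.10 in untreated reporter cells and 9.96 in wild-type cells.

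Cluster 9 held 95.3% of the Ly6d UMIs of the DMSO library, 89.6% of those of the untreated reporter and 91.7% of those of wild type. For Anxa1 it held 87.0% in DMSO, 85.8% in the untreated reporter and 77.8% in wild type, and for Ly6a 80.0% in DMSO, 72.8% in the untreated reporter and 69.4% in wild type. For Sprr1a, Anxa3 and Plaur the shares lay between 53.9% and 68.3% in the 3 libraries. Clu was the exception, with 36.7% in DMSO, 32.0% in the untreated reporter and 38.1% in wild type, and the rest of it lay at 1.0 to 19.01 CPM across the other clusters with at least 50 cells. In cluster 3, led by the stem cell markers Olfm4 and Gkn3, none of the 8 exceeded 6.9 CPM in any library. Enterocyte markers summed in cluster 9 to 3974 CPM in DMSO cells, 2405 in untreated reporter cells and 3000 in wild-type cells. Over all cells they summed to 2445 in DMSO, 2140 in the untreated reporter and 1635 in wild type. Sums of stem, proliferation, goblet, Paneth, tuft and enteroendocrine markers were lower in cluster 9 than over each library. Immune markers summed to 8.26 to 10.0 CPM in cluster 9, with 2 to 5 of the 7 that any of the matrices lists at 0, against 2.91 to 4.75 CPM over the same 3 libraries. The part of these markers was not tested.

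**Figure D3:**
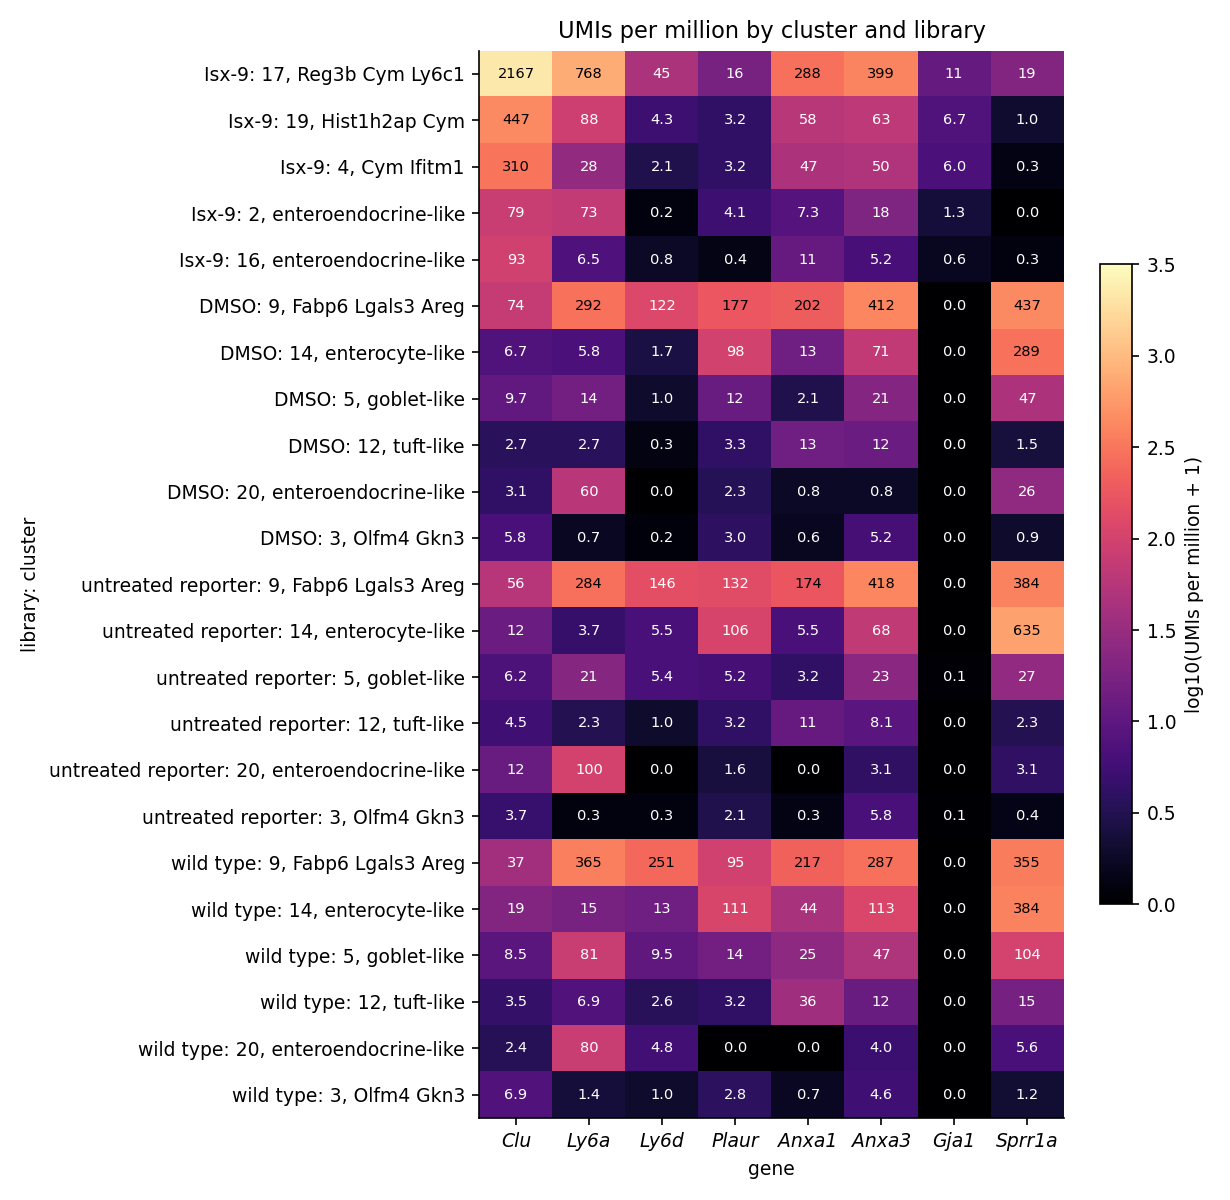
CPM of UMIs of the 8 genes in selected clusters of each library, printed in each field and coloured by log10(CPM + 1). Cluster 17 of the Isx-9 library is brightest for Clu (2167), while cluster 9 of the other libraries is bright for Ly6a, Anxa1, Anxa3, Ly6d, Plaur and Sprr1a and dark for Gja1.

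Finer clustering (42 clusters) split cluster 9, and a small set of cells held most of the Ly6d and Anxa1 UMIs but not of the other genes in every library. This set, led by Lgals3, F3, S100a6, Emp1 and Areg, held 335 cells, of which 1 came from the Isx-9 library, 110 from DMSO (1.23%), 88 from the untreated reporter (0.92%) and 136 from wild type (1.56%). Sprr1a stood there at 1303 CPM in DMSO cells, 1201 in untreated reporter cells and 1632 in wild-type cells. Anxa1 stood at 546 in DMSO cells, 540 in untreated reporter cells and 940 in wild-type cells, and Ly6d at 388 in DMSO cells, 437 in untreated reporter cells and 1306 in wild-type cells. The set held 88.0% of the Ly6d UMIs of the DMSO library, 69.6% of those of the untreated reporter and 71.6% of those of wild type. Of Anxa1 it held 68.1% in DMSO, 69.4% in the untreated reporter and 50.6% in wild type, and of Clu 15.1% in DMSO, 9.82% in the untreated reporter and 9.10% in wild type. Its shares of Sprr1a were 58.0% in DMSO, 49.2% in the untreated reporter and 47.2% in wild type, and of Ly6a 56.4% in DMSO, 44.6% in the untreated reporter and 33.2% in wild type. Of Plaur it held 32.0% to 39.6% and of Anxa3 25.5% to 37.1% in the 3 libraries, and it had 0 UMIs of Gja1. The set thus made up 0.92% of the untreated reporter and 1.56% of wild type, whereas cluster 9 made up 3.42% of the untreated reporter and 11.8% of wild type.

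Several genes had a second place outside clusters 9 and 17. Sprr1a and Plaur were high in cluster 14, enterocyte-like and led by Gm26917 and the apolipoprotein genes Apoa4 and Apoa1. There Sprr1a stood at 289 CPM in DMSO cells, 635 in untreated reporter cells and 384 in wild-type cells, and Plaur at 97.7 in DMSO cells, 106 in untreated reporter cells and 111 in wild-type cells. The cells of cluster 14 were shallow, with a median of 1902.5 UMIs. In goblet-like cells Sprr1a stood at 46.7 in DMSO cells, 26.9 in untreated reporter cells and 104 in wild-type cells, and Ly6a at 14.2 in DMSO cells, 21.0 in untreated reporter cells and 80.7 in wild-type cells. Both were thus highest in the goblet-like cells of wild type. In cluster 20, enteroendocrine-like and led by Afp, Reg4 and Tph1, Ly6a stood at 60.3 in DMSO cells, 99.8 in untreated reporter cells and 79.7 in wild-type cells. Anxa1 was seen in tuft-like cells, with a UMI in 6.37% of DMSO cells, 4.86% of untreated reporter cells and 15.8% of wild-type cells after thinning, and in 54.2% of the 24 tuft-like cells of the Isx-9 library.

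Cells with several of the genes were found in every library, though more cells had exactly 1. After thinning, 34.9% of Isx-9 cells and 8.29% of DMSO cells had UMIs of 1 gene, as did 7.66% of untreated reporter cells and 12.8% of wild-type cells. In the same cells, 21.7% of Isx-9 cells had UMIs of at least 2 of the 8, against 2.72% of DMSO cells, and 2.32% of untreated reporter cells against 7.20% of wild-type cells. At least 3 genes were seen in 8.21% of Isx-9 cells against 1.17% of DMSO cells, and in 1.21% of untreated reporter cells against 4.07% of wild-type cells. In cluster 17 the share with at least 3 was 69.2%, and in the other clusters of the Isx-9 library 3.34%. In cluster 9 it was 25.6% for DMSO, 30.6% for the untreated reporter and 26.9% for wild type, and in the other clusters 0.14% for DMSO, 0.20% for the untreated reporter and 1.07% for wild type. The most genes seen in 1 thinned cell were 6 to 7.

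**Figure D4:**
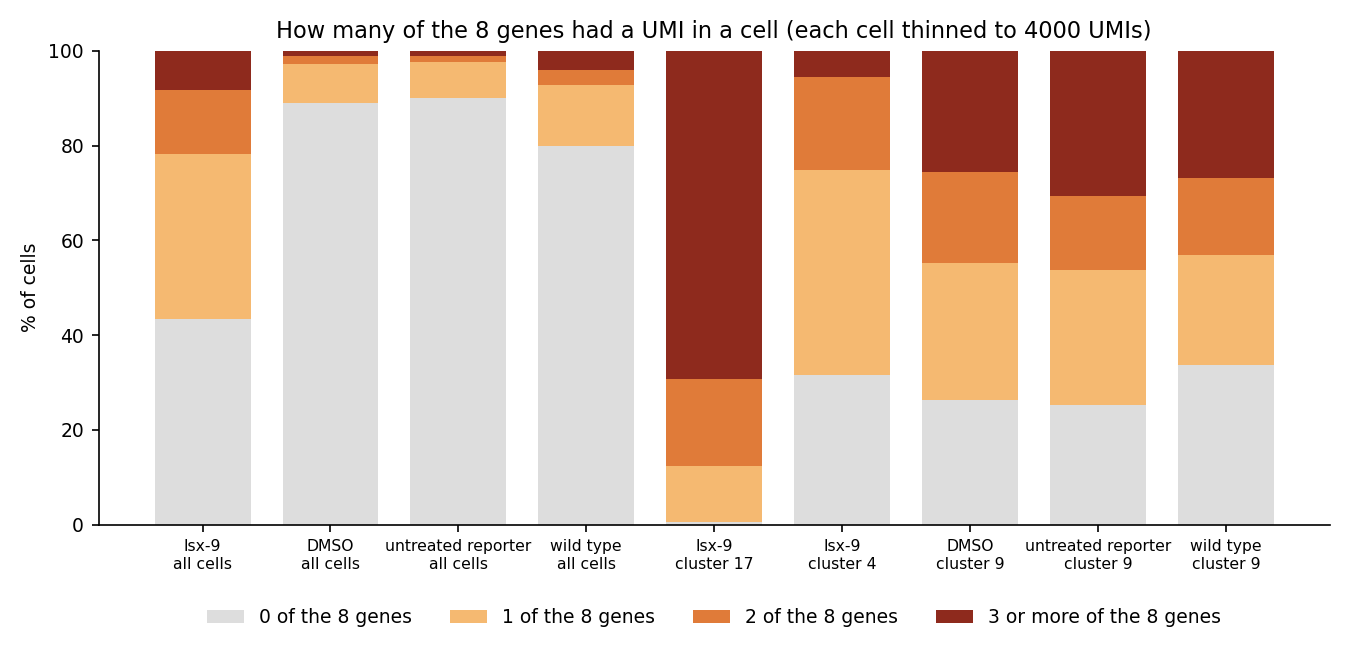
Stacked shares of cells, in percent, with UMIs of 0, 1, 2 or at least 3 of the 8 genes after thinning each cell to 4000 UMIs, for whole libraries and for clusters 17, 4 and 9. Cluster 17 has at least 3 genes in 69.2% of its cells, and the 3 libraries in cluster 9 in 25.6% to 30.6%.

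Pair by pair, joint detection exceeded the product of the 2 shares for 88 of 91 pairs over the 4 libraries, a ratio that grows when genes share a cluster. The median ratio was 2.10 over 28 pairs for Isx-9, 10.9 over 21 pairs for DMSO, 11.7 over 21 for the untreated reporter and 5.38 over 21 for wild type. The 3 pairs at or below 1 were those of Gja1 with Ly6d, Plaur and Sprr1a in the Isx-9 library, where Gja1 was seen in 104 thinned cells. Of the Isx-9 cells with Ly6d, 90.7% also had Clu and 75.6% had Ly6a, whereas of those with Clu 24.7% had Ly6a. Of wild-type cells with Ly6d, 65.1% had Ly6a and 10.1% had Clu. Of DMSO cells with Anxa1, 58.8% had Anxa3, 44.1% had Sprr1a and 17.6% had Clu. Clu was thus the usual partner of Ly6d with Isx-9, and a minor partner of Ly6d in wild type and of Anxa1 in DMSO. These shares stand beside Clu in 42.2% of all thinned Isx-9 cells, 2.77% of wild-type cells and 2.46% of DMSO cells.

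Across 54 sums of a cluster within a library (at least 50 cells each) Sprr1a and Plaur varied together. Clu and Gja1 also had a high r, with little in common between the pairs. Gja1 was almost unseen outside the Isx-9 library, so its r values, with Clu and with other genes, rest on the Isx-9 sums. A pairing of Clu with Gja1 thus cannot be told from the difference between libraries. These sums share libraries, depth and clusters, and the Pearson r of log2(CPM + 10) given here is a description. Clu and Gja1 had r = 0.86, Anxa1 and Anxa3 0.90, and Sprr1a and Plaur 0.94. Clu and Sprr1a had r = 0.14, and Gja1 had -0.08 with Sprr1a and -0.03 with Plaur. The gene most like Clu over all genes was Nid1 (0.95), followed by Rbms1 and Cavin3 (both 0.94). The gene most like Gja1 was Rab38 (0.99), and most like Ly6a was Serpinb5 (0.81). Plaur was most like Nos2 (0.97) and F3 (0.95), Sprr1a most like Plaur and F3 (both 0.94), Anxa3 most like Mboat1 (0.94), Anxa1 most like Anxa3 and S100a11 (both 0.90), and Ly6d most like the predicted gene Gm13056 (0.93) and Ly6g (0.91).

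**Figure D5:**
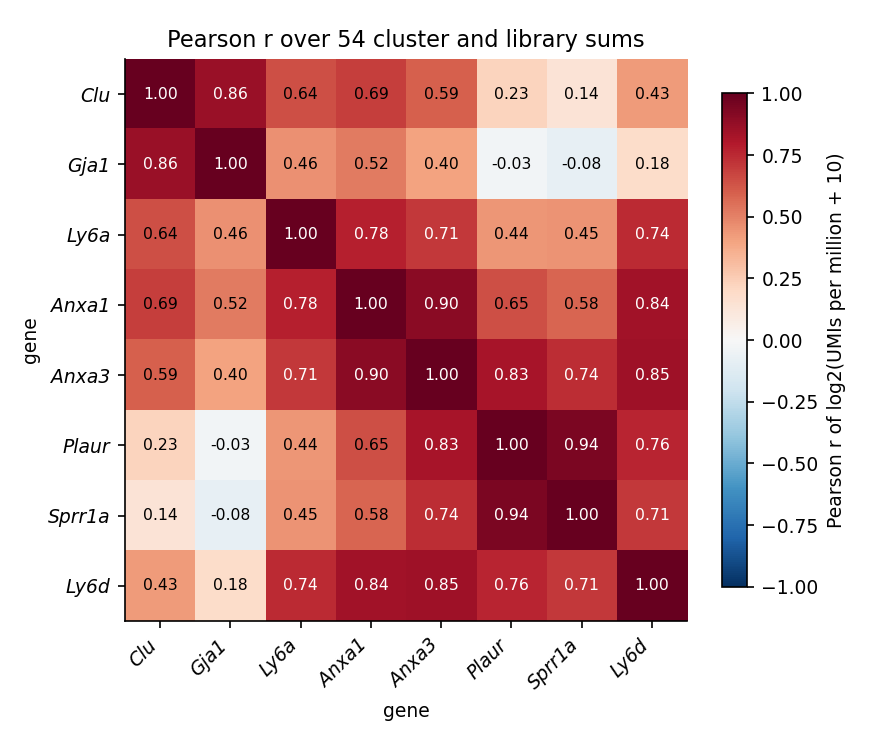
Pearson r between each pair of the 8 genes over 54 cluster and library sums of log2(CPM + 10). The pairs Clu and Gja1 (0.86) and Sprr1a and Plaur (0.94) are high, and fields between the pairs lie between -0.08 and 0.23. The values of Gja1 rest on the Isx-9 sums, since it was almost unseen in the other libraries.

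The untreated reporter held less of the list than wild type. Past a fold of 2, 0 of the 7 genes with enough UMIs were higher, beside 1.71% of 14878 genes, and 4 were lower (Anxa1, Ly6a, Ly6d and Sprr1a), beside 3.31%. The ratios of reporter to wild type were 0.199 for Ly6d (0.184 to 0.216), 0.242 for Anxa1 (0.225 to 0.260), 0.248 for Ly6a (0.235 to 0.261) and 0.408 for Sprr1a (0.391 to 0.426). Anxa3 (0.516), Plaur (0.526) and Clu (0.605) stayed within a fold of 2. The share of cells in cluster 9 differed in the same direction, 3.42% in the reporter and 11.8% in wild type, and the same 4 genes were lower by at least 2-fold when cluster 9 was left out. Gja1, with 4 UMIs in the reporter and 3 in wild type, was too low to compare. The DMSO library differed little from the untreated reporter: 0 of 7 genes were higher past a fold of 2, beside 0.359% of 14763 genes, and 0 lower, beside 0.251%, with ratios from 0.878 for Ly6d (0.790 to 0.976) to 1.36 for Plaur (1.26 to 1.47). These are single libraries, so genotype, culture and library cannot be told apart.

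The comparison of Isx-9 with DMSO also depended on these 2 clusters. Without cluster 17, which holds Isx-9 cells only, Clu stayed at a ratio of 28.0, Ly6a at 3.27 and Anxa1 at 3.46, but Anxa3 dropped to 1.38 and Ly6d to 0.32, so that 4 genes were higher and 3 lower. Without cluster 9, which is nearly absent with Isx-9, the ratios were 77.4 for Clu, 38.7 for Ly6a, 45.03 for Anxa1, 6.96 for Anxa3 and 23.2 for Ly6d, and Plaur stood at 0.90 and Sprr1a at 0.24, so that 6 were higher and 1 lower. The counts of higher genes include Gja1, whose call was fixed through the Isx-9 library. Clu, Ly6a and Anxa1 were thus higher with Isx-9 in each of these counts. The ratios of Ly6d, Anxa3 and Plaur turned on which cells were counted.

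Other genes of these pathways went both ways at 6 days. Of 22 other fetal-like genes 9 were higher and 5 lower past a fold of 2 with Isx-9, with a median ratio of 1.65. Over all genes 34.5% were higher, near the share of this list, and 4.83% lower, with a median of 1.37. Spp1 (osteopontin) had 1182 UMIs with Isx-9 and was not seen with DMSO, and Il33 had a ratio of 54.3 (32.1 to 99.9). Anxa10 ran the other way, with 0 UMIs with Isx-9 and 700 with DMSO. Of 12 YAP target genes 8 were higher and 1 lower (median ratio 5.98), among them Axl with 464 UMIs and Ankrd1 with 103, neither seen with DMSO, Ctgf at 11.7 (10.2 to 13.5) and Dlc1 at 6.55 (5.54 to 7.79). Of 15 YAP pathway components 4 were higher, a smaller share than the 34.5% of all genes, and 0 lower (median 1.39), with Lats2 at 6.74 (5.44 to 8.42), Tead2 at 5.91 (5.58 to 6.28), Wwtr1 at 4.11 (3.73 to 4.53) and Tead4 at 3.89 (2.97 to 5.16).

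Within the gene families, Isx-9 and DMSO libraries held different members. Of 12 connexin genes, Gja1 included, 10 were higher and 1 lower (median ratio 20.1). Gjc1 had 649 UMIs with Isx-9 and 4 with DMSO, and Gja3 had 244 and was not seen with DMSO. Gja4 had a ratio of 22.1 (14.1 to 36.6) and Gjd2 of 20.7 (12.3 to 37.6). In DMSO against the untreated reporter, only 5 connexin genes reached 30 UMIs. Gja1, Gjc1, Gja3, Gja4 and Gjd2 had under 30 UMIs with DMSO and reached that limit through the Isx-9 library. Their calls thus add nothing to the count, and the median rests on them. Of 22 Ly6/uPAR genes 11 were higher and 5 lower (median 2.64). Ly6h had 13728 UMIs with Isx-9 and was not seen with DMSO, and Lypd3 had a ratio of 36.8, Ly6c1 of 27.9 and Lypd1 of 25.0. Of 11 annexin genes 5 were higher and 2 lower (median 1.74), with Anxa6 at 15.9 (14.6 to 17.3), Anxa5 at 4.31 (4.12 to 4.52) and Anxa2 at 0.353. Cornified envelope genes were the group whose median lay below 1 (0.491): 2 of 10 were higher and 5 lower, with Lor at 5.45 (4.49 to 6.66), Sprr2b at 0.351, Sprr2a1 at 0.399 and Sprr2f at 0 UMIs with Isx-9 and 161 with DMSO. Reads of the Sprr2 copies may be split between them.

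Of 7 plasminogen activation genes 4 were higher and 1 lower (median 2.11). Serpine2 had a ratio of 82.3 (60.0 to 116.0), and Mrc2, which encodes a collagen receptor that binds the urokinase receptor, had 105 UMIs with Isx-9 and was not seen with DMSO. Of 6 binding partners 3 were higher and 0 lower (median 1.97), with Lrp2 at 353 UMIs with Isx-9 and not seen with DMSO, the clusterin receptor gene Lrp8 at 2.46 (2.30 to 2.62) and S100a11 at 2.34 (2.31 to 2.38). Of 10 interferon response genes 4 were higher, near the 34.5% of all genes, and 0 lower (median 1.42), led by Oasl2 (3.34, 2.41 to 4.69) and Bst2 (2.85, 2.73 to 2.97).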

How the data were processed

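The authors deposited UMI counts per gene and barcode for 4 single-cell libraries and read counts per gene for 4 bulk libraries. The submitters' processing notes name GRCm38, Cell Ranger 3.1.0, Seurat 3.1.5, Trim Galore 0.6.4, HISAT2, HTSeq 0.12.4 and DESeq2 1.24.0. No annotation release or strand setting is given in the sources used here. Log2 fold changes and adjusted p-values of the authors' own bulk comparison come from their deposited table. Per the file headers, the matrices hold gene names and barcodes, and each lists only genes with UMIs in at least 3 barcodes and barcodes with at least 200 genes. The 6 ATAC-seq samples were not analysed here.

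Bulk counts were fitted with edgeR 4.0.16 in R 4.3.3 (TMM factors, filterByExpr, quasi-likelihood test, two-sided, Benjamini-Hochberg adjustment, threshold 0.05), and DESeq2 1.42.0 was an alternative. On simulated counts the same test recovered 39.5%, 60.5% and 83% of genes changed by folds of 1.5, 2 and 4. Barcodes under 500 genes or 1000 UMIs, or over 20% mitochondrial UMIs, were dropped, doublets were called with Scrublet, and cells were clustered with scanpy 1.11.5 and leidenalg 0.10.2 (2000 variable genes without the 8, 30 components, 15 neighbours, resolution 1, no batch correction). Clusters were named only where at least 3 markers of a class were more than 2-fold higher and at least 1 was among the 10 leading genes. The 8 genes were not used for naming. UMIs were summed per library or cluster, and a ratio was counted past a fold of 2 for genes with at least 30 UMIs over both libraries. The bulk reads carry no molecular identifiers, so they are not independent molecules, and the 95% intervals on UMIs cover counting error only. Of each gene list, up to 4 genes are named, those past the bulk threshold with the largest absolute log2 fold change, or in single cells those with the largest absolute log2 ratio and at least 100 UMIs. For likeness, the 3 genes with the highest r were taken and not all are printed. Some genes that these rules name are not reported here. The 8 genes and the lists were chosen with earlier results of these data known. The alternatives are other scalings and filters, DESeq2, a replicate block, leaving out libraries or clusters, other doublet, mitochondrial and thinning settings, and finer clustering.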

Additional observations from a re-analysis of the deposited data

Results flagged for a closer look

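Sprr1a and Plaur moved in opposite directions in the 2 assays. Both Isx-9 libraries stood above both DMSO libraries at 6 hours in sorted stem cells, whereas at 6 days in whole organoids the log2 ratio of Isx-9 to DMSO was -3.31 for Sprr1a and -1.34 for Plaur. The difference was not tested, since the 6-day data hold 1 library per group and the assays differ in cells, time and method. At 6 days, 0.13% of Isx-9 cells lay in cluster 9, against 4.17% of DMSO cells, and without cluster 9 the ratio of Isx-9 to DMSO was 0.90 for Plaur and 0.24 for Sprr1a.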

How the results depend on the processing

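Of 56 refits of the bulk fold changes 45 kept direction and call, 9 lost the call (Clu and Sprr1a), 1 gained it and 1 turned, namely Ly6a at -0.063 without DMSO replicate 2 (range -0.063 to 2.72 when each library was left out in turn). Between 4 and 7 genes were higher and 0 lower when libraries were left out, 4 were higher with DESeq2 and 4 with no filter on low counts, where 14.7% of 27399 genes were higher. Over all genes, 3488 were lower in the fit reported, 2095 with library size alone (which shifted the median log2 fold change to 0.14) and 2062 without Isx-9 replicate 1. Samples that share a replicate number did not deviate together (r = 0.01 over 17418 genes), so the numbers are names only. With the replicate block 5 genes were higher and the adjusted p of Sprr1a was 0.0521. At 6 days, leaving out cluster 9, a choice made after seeing the data as was cluster 17, left 1 gene at least 2-fold lower in Isx-9 against DMSO and 1 in DMSO against the untreated reporter (Ly6d, ratio 0.40). Other doublet, cell filter and mitochondrial settings kept every count of the 8 genes past a fold of 2. With Leiden resolution 2, 14 of 29 pairs of a gene and a library had at least 50% of the UMIs in 1 cluster, against 24 at resolution 1. Joint detection exceeded the product for 91 of 91 pairs without thinning and 83 of 84 at 2000 UMIs. Depth limits Gja1 outside the Isx-9 library and Ly6d in bulk.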
